A study of Mus musculus with 12 samples.

Results

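The genes examined were 10 mouse genes of the ATF4, CHOP and endoplasmic reticulum (ER) stress response: Atf4, Ddit3 (which encodes CHOP), Trib3, Chac1, Ppp1r15a, Xbp1, Dnajb9, Hspa5, Hsp90b1 and Herpud1. They were chosen by symbol among the 56691 Ensembl gene IDs of the deposited count table, of which 30285 had a count in any library. The symbols matched 11 IDs, because Ddit3 also names a second, overlapping ID (ENSMUSG00000116429) that had 0 counts in all 12 libraries. The other 10 IDs all passed the filter on low counts, as did 15935 IDs in all, and Chac1 passed it through its 48 h libraries. RNA had been sequenced from spleen CD8+ T cells, which the series' design text calls naive, of Senp1 CKO and Senp1 WT mice. Senp1 encodes a protease that takes the small protein SUMO off its targets, and CKO is the usual short form of conditional knockout. The 4 groups were CKO cells stimulated for 48 h, WT cells stimulated for 48 h, CKO cells at 0 h and WT cells at 0 h, with 3 libraries each. Stimulation was with antibodies to CD3 at 5 µg/ml and to CD28 at 1 µg/ml, which engage the T-cell receptor complex and a costimulatory receptor, and the 0 h cells received none. The Cre driver, the strain and the age of the mice were not given in the sources used here, and the labels do not say that replicates came from separate animals. The p-values therefore measure the spread between these libraries, which may be technical.

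The ER stress response is read from sensors in the ER membrane. PERK, like other kinases that phosphorylate eIF2alpha, slows protein synthesis while raising translation of ATF4, a transcription factor for amino acid supply genes, for CHOP and for feedback inhibitors. IRE1 cuts an intron out of Xbp1 mRNA, and ATF6 is released from the membrane by proteases; the resulting factors raise chaperones and the machinery that removes misfolded proteins. In T cells, activation through the antigen receptor brings rapid growth and secretory load, and ATF4 is known for supplying amino acids to the growing cells.

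Library totals ran from 15900529 to 22427151 counts. Expression levels are CPM, that is counts relative to the TMM-adjusted library total, with the SD over 3 libraries. Changes are log2 values with their standard error (SE) from edgeR's quasi-likelihood test, with p-values adjusted by the Benjamini-Hochberg method over all 15935 genes tested, and genes under an adjusted p of 0.05 were called. Senp1 itself was at 70.0, 74.5 and 66.3 CPM in CKO cells and at 150.3, 170.8 and 163.9 CPM in WT cells at 48 h, and at 56.5, 59.8 and 54.6 CPM in CKO cells and 83.9, 85.4 and 77.9 CPM in WT cells at 0 h. It was lower in CKO at 48 h (log2 difference -1.20 ± 0.0687 SE, adjusted p = 5.43e-10) and at 0 h (-0.53 ± 0.0700, adjusted p = 6.26e-05), with no overlap between genotypes. All 8 markers of CD8 T cells were present in every group, with summed levels averaging 1975 CPM in CKO and 2347 CPM in WT at 48 h and 4239 CPM in CKO and 4327 CPM in WT at 0 h. At 48 h the sums did not overlap between genotypes (1935 to 2006 CPM in CKO and 2303 to 2417 CPM in WT). Cd8a, Cd2 and Cd8b1, 3 of the 8, were called lower in CKO at 48 h, beside 2.19% of all genes. At 0 h Cd8a was the 1 of 8 called, also lower in CKO, beside 3.38% of all genes. The 15 B-cell markers were present too, at 382 to 411 CPM in CKO and 383 to 518 CPM in WT at 48 h, and at 1280 to 1472 CPM in CKO and 1748 to 3266 CPM in WT at 0 h. WT replicate 1 stood apart at both times, with the highest B-cell sum of its group, 518 CPM at 48 h and 3266 CPM at 0 h. It was also the highest of the WT libraries for 10 of the 10 genes at 48 h and for 7 of them at 0 h. Each comparison of the genotypes was therefore also made without it. For each of the 10 genes this is given below for at least 1 time. In bulk RNA a change in the share of a cell type and a change in RNA per cell cannot be told apart.

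The reference promoters of the genes were read first, because the ER stress factors bind known short elements there. Windows of 250 bases before to 50 bases after each start, taken from RefSeq on GRCm38.p6, were matched for 10 of 10 genes and searched on both strands. The ER stress response element (ERSE), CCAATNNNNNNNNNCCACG, the site of ATF6 with the factor NF-Y, was found in 39 of 32851 windows (0.119%). Among the 10 genes it was in those of Hspa5, with 1 match, and Hsp90b1, with 2. The shorter element ERSE-II, ATTGG and CCACG with 1 base between them, was in 12 windows (0.0365%), of which 1 was that of Herpud1. The core of the amino acid response element bound by ATF4, TGATGNAA, was in 1304 windows (3.97%) and in those of Chac1, Herpud1 and Trib3. The cyclic AMP response element TGACGTCA was in 588 windows (1.79%) and in that of Ppp1r15a, and the core TGACGTGG bound by XBP1 was in 222 windows (0.676%) and in none of the 10. None of these elements was found in the windows of Atf4, Ddit3, Xbp1 and Dnajb9, which says only that these letters are not there. The stretches that hold the matches follow, 5′ to 3′ in the direction of the gene, with matches in capitals. They are the 250 bases before the start for Hspa5 (chr2:34771840-34772089, plus strand), Hsp90b1 (chr10:86705445-86705694, minus strand), Herpud1 (chr8:94386179-94386428, plus strand) and Chac1 (chr2:119350992-119351241, plus strand). For Trib3 (chr2:152344028-152344057, minus strand) and Ppp1r15a (chr7:45526262-45526291, minus strand), whose matches lie just after (Trib3) and just before (Ppp1r15a) the start, 30 bases around the match are shown.
Hspa5: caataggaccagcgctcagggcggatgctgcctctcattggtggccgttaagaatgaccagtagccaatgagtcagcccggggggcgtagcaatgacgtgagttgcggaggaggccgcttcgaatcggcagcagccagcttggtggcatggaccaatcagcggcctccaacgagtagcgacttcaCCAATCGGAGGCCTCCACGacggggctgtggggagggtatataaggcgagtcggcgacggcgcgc
Hsp90b1: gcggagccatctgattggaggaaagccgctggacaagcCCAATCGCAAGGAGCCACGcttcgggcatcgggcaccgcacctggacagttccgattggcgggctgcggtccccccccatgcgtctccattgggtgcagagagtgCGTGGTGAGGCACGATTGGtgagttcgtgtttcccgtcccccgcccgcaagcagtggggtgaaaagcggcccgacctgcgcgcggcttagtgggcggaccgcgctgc
Herpud1: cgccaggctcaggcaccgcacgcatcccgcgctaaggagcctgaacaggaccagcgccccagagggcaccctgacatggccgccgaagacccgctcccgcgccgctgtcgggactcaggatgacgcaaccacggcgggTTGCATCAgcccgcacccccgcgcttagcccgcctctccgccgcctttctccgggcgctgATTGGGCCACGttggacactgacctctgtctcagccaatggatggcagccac
Chac1: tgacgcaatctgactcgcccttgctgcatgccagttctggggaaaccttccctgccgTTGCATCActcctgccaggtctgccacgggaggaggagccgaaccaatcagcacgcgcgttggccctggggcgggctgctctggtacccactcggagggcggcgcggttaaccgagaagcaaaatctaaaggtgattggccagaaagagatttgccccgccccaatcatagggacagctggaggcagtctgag
Trib3: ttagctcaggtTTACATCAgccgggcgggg
Ppp1r15a: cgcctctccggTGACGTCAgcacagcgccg
The capitals in Chac1, Trib3 and at the first place in Herpud1 are the ATF4 core read on the opposite strand, and the capitals at the last place in Herpud1 are ERSE-II. A match in reference sequence is a description and shows no binding in these cells.

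Stimulation moved the genes in opposite directions within the same pathway. At 48 h against 0 h, 9 of the 10 genes were called in CKO, 5 higher and 4 lower, where 77.7% of all genes tested were called (38.5% higher and 39.2% lower). In WT 8 were called, 6 higher and 2 lower, against 77.9% of all genes (38.7% higher and 39.1% lower), so both shares were near the background of these comparisons. These counts include Chac1, which passed the filter on low counts only through its 48 h libraries and so had to be higher there. Among the other 9 genes 4 were higher and 4 lower in CKO, and 5 were higher and 2 lower in WT. The libraries of the 2 times did not overlap for 9 genes in CKO (81.0% of all genes) and for 7 in WT (79.4%). The median log2 change of the 10 genes was 0.18 in CKO and 0.35 in WT, beside -0.04 and -0.03 over all genes tested, again with Chac1 included. Atf4, Trib3, Hspa5 and Hsp90b1 rose in both genotypes, Dnajb9 and Ppp1r15a fell in both, and Xbp1 was called in neither. Ddit3 fell in CKO and was not called in WT, and Herpud1 fell in CKO and rose in WT; for these 2 the difference between the responses was itself called, as given further on.

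**Figure D1:**
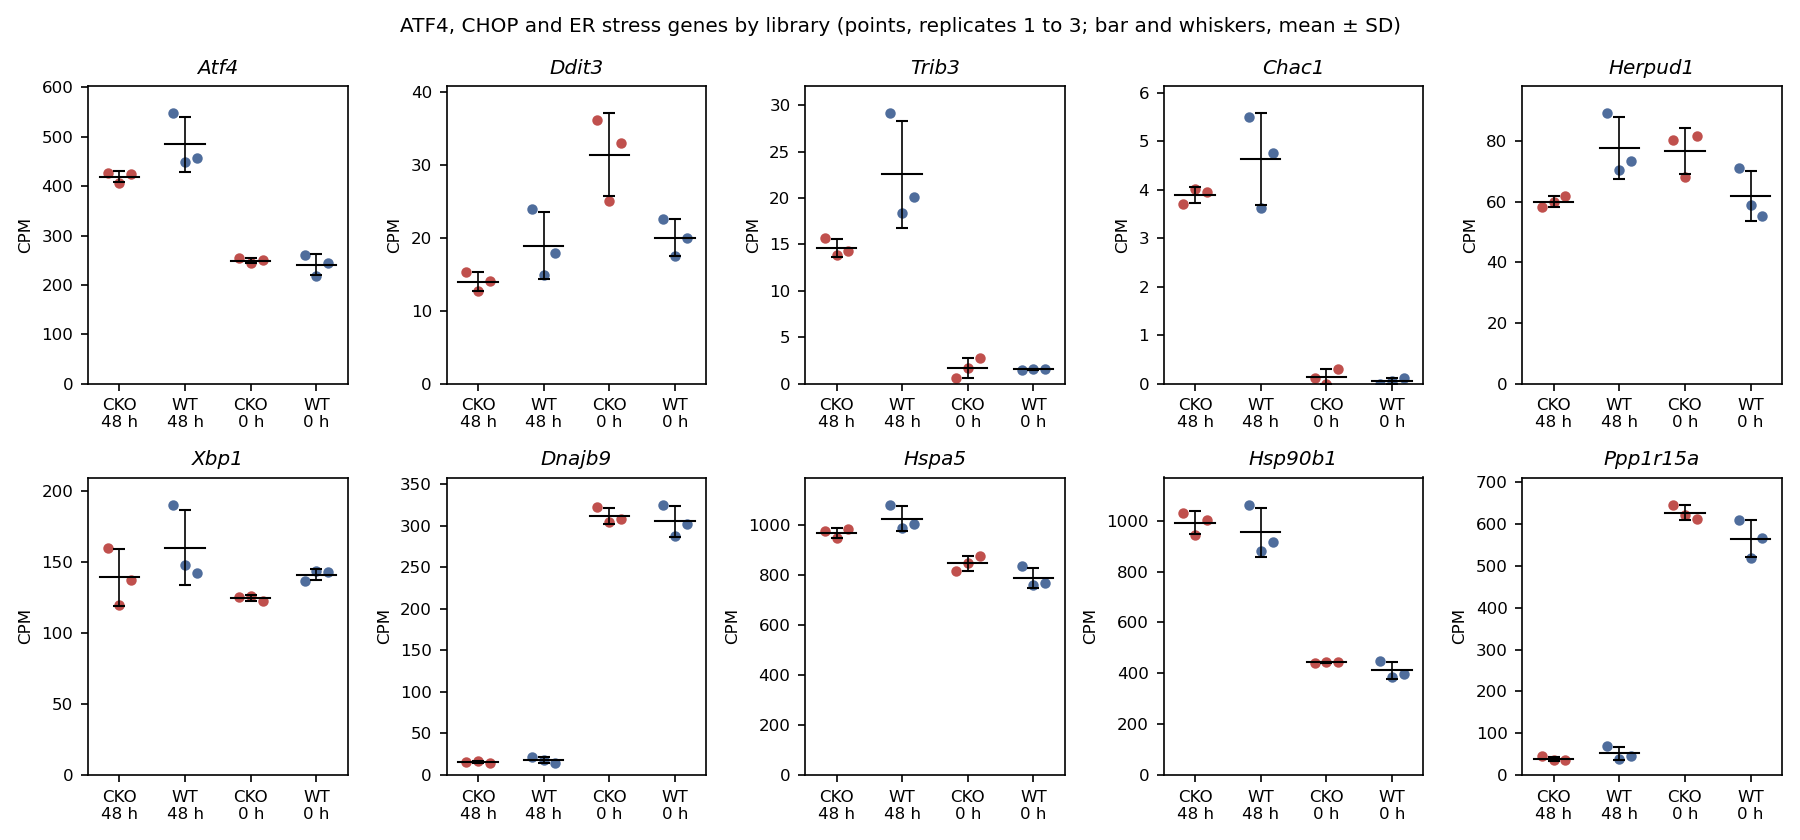
Level of each of the 10 genes in CPM (vertical axis, linear from 0) in each library; points are replicates 1 to 3 from left to right in CKO at 48 h, WT at 48 h, CKO at 0 h and WT at 0 h, and bars with whiskers are the mean ± SD (n = 3). WT replicate 1 is the highest point of the WT 48 h group in all 10 panels, and Ddit3 has its highest points in CKO at 0 h.

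Atf4 (ENSMUSG00000042406, chromosome 15), the transcription factor at the centre of the response, was at 426.5, 405.9 and 424 CPM in CKO and 548.2, 448 and 458.1 CPM in WT at 48 h, and at 253.7, 243.6 and 250.3 CPM in CKO and 260.4, 217.3 and 244.5 CPM in WT at 0 h. Each 48 h library lay above each 0 h library of its genotype. The rise was 0.75 ± 0.0756 on the log2 scale in CKO (1.68-fold, adjusted p = 2.34e-08) and 1.01 ± 0.0758 in WT (2.01-fold, adjusted p = 2.49e-10). Atf4 is regulated mainly through translation, which counts of mRNA do not measure. The genotypes overlapped at 0 h (log2 difference 0.05 ± 0.0755, adjusted p = 0.772). At 48 h the CKO libraries all lay below the WT libraries, but the difference of -0.21 ± 0.0748 was not called (adjusted p = 0.131). Without WT replicate 1 at both times it was -0.12 (adjusted p = 0.299), and with no count filter it was called (-0.23, adjusted p = 0.0182).

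Trib3 (ENSMUSG00000032715, chromosome 2) encodes a pseudokinase that is a target and feedback inhibitor of ATF4 and CHOP. It was at 15.7, 13.9 and 14.3 CPM in CKO and 29.2, 18.4 and 20.1 CPM in WT at 48 h, and at 0.615, 1.64 and 2.74 CPM in CKO and 1.49, 1.57 and 1.60 CPM in WT at 0 h. All 48 h libraries were above all 0 h libraries. Trib3 rose by 3.13 ± 0.309 in CKO (8.76-fold, adjusted p = 3.10e-07) and by 3.85 ± 0.305 in WT (14.4-fold, adjusted p = 2.46e-08). At 48 h the CKO libraries lay below the WT libraries without overlap, and the difference of -0.62 ± 0.241 was not called (adjusted p = 0.194). It was called without CKO 0 h replicate 1 (adjusted p = 0.0461) and with no count filter (-0.64, adjusted p = 0.00127), whereas without WT replicate 1 at both times it was -0.40 (adjusted p = 0.399).

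Chac1 (ENSMUSG00000027313, chromosome 2) encodes an enzyme that degrades glutathione and is a target of ATF4 and CHOP. It had 66, 73 and 78 counts in CKO and 106, 69 and 105 counts in WT at 48 h, and 2, 0 and 5 counts in CKO and 0, 1 and 2 counts in WT at 0 h. The 0 h libraries of both genotypes were at or near 0. Summed counts were 217 at 48 h and 7 at 0 h in CKO, a 27.3-fold higher level (exact 95% interval 13.0 to 68.8), and 280 at 48 h and 3 at 0 h in WT, an 83.7-fold higher level (28.4 to 408). These intervals cover counting error only. Because Chac1 passed the filter on low counts only through its 48 h libraries, it had to differ between the times, and no test of that difference is given. At 48 h the level averaged 3.88 ± 0.164 CPM in CKO and 4.63 ± 0.946 CPM in WT, which overlapped. The log2 difference at 48 h was -0.26 ± 0.310 (adjusted p = 0.761), and -0.12 without WT replicate 1 at both times (adjusted p = 0.912).

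Ppp1r15a (ENSMUSG00000040435, chromosome 7) encodes GADD34, the stress-induced subunit that directs a phosphatase to eIF2alpha and ends its phosphorylation. It was at 44.7, 36.0 and 35.8 CPM in CKO and 69.7, 38.5 and 46.6 CPM in WT at 48 h, and at 647.1, 623 and 612.8 CPM in CKO and 610.1, 520.1 and 566.7 CPM in WT at 0 h. Every 48 h library was far below every 0 h library, the opposite of Atf4, Trib3 and Chac1. Ppp1r15a fell by 4.02 ± 0.206 in CKO (16.2-fold lower, adjusted p = 3.95e-08) and by 3.46 ± 0.200 in WT (adjusted p = 1.03e-07). Between genotypes it differed by -0.41 ± 0.194 at 48 h (adjusted p = 0.339) and by 0.15 ± 0.178 at 0 h (adjusted p = 0.705). Without WT replicate 1 at both times these were -0.14 (adjusted p = 0.565) and 0.22 (adjusted p = 0.170).

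Dnajb9 (ENSMUSG00000014905, chromosome 12), which encodes the ER cochaperone ERdj4, an XBP1 target that restrains IRE1, moved like Ppp1r15a. It was at 16.1, 16.7 and 14.6 CPM in CKO and 21.4, 18.6 and 14.8 CPM in WT at 48 h, and at 322, 304.8 and 308.3 CPM in CKO and 325.5, 288.2 and 301.8 CPM in WT at 0 h. The 2 times did not overlap and the genotypes overlapped at each. It fell by 4.30 ± 0.103 in CKO (19.7-fold lower, adjusted p = 5.27e-17) and by 4.07 ± 0.101 in WT (16.8-fold lower, adjusted p = 8.12e-17). Between genotypes it differed by -0.20 ± 0.105 at 48 h (adjusted p = 0.352) and by 0.03 ± 0.0856 at 0 h (adjusted p = 0.890). Without WT replicate 1 at both times these were -0.08 (adjusted p = 0.749) and 0.09 (adjusted p = 0.491). A pseudogene, Gm6568, shares 10.8% of the 31-base words of Dnajb9 transcripts, and had 29 counts over all libraries against 33757 for Dnajb9.

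The high 0 h levels of Ppp1r15a and Dnajb9 stood beside a high summed level of immediate early genes, a list of 14 genes that also respond to cell handling. Of the 14, 10 were lower at 48 h in each genotype, Fos, Jun and Dusp1 among them, 1 (Ier3) was higher and 3, among them Egr1, were not called. Over all genes tested, 39.2% were lower and 38.5% higher in CKO, and 39.1% and 38.7% in WT. Their summed level was 1266, 1195 and 1260 CPM in CKO and 1233, 1156 and 1191 CPM in WT at 48 h, and 8243, 5761 and 7681 CPM in CKO and 7002, 5473 and 5767 CPM in WT at 0 h. The 2 genes with the closest profile to Dnajb9 over the 12 libraries were Myl12b and Dusp1 (Pearson r of log2 CPM 0.998 each), and those closest to Ppp1r15a were Acp5 and Sqstm1 (0.997 each). Over 12 libraries in 2 times, such values hold the step between times that these genes share. The part of cell handling in the 0 h levels was not tested.

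Xbp1 (ENSMUSG00000020484, chromosome 11) encodes the factor that IRE1 activates by excising a 26-base intron from its mRNA. The site is shown because counts per gene cannot tell the spliced from the unspliced mRNA, with the excised bases in capitals, in exon 4 of 5 of Xbp1-201, within the coding sequence (chr11:5524279-5524304 for the capitals, plus strand, GENCODE M21 on GRCm38).
Xbp1: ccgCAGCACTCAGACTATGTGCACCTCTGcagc
Xbp1 mRNA was at 160, 119.9 and 137.2 CPM in CKO and 190.3, 147.6 and 141.8 CPM in WT at 48 h, and at 125.6, 126.1 and 122.1 CPM in CKO and 136.3, 143.7 and 142.6 CPM in WT at 0 h. The times overlapped in both genotypes, and the CKO libraries at 0 h were all below the WT libraries. No comparison was called, with changes of 0.16 ± 0.108 in CKO (adjusted p = 0.193) and 0.18 ± 0.107 in WT (adjusted p = 0.132). Without CKO 48 h replicate 2 the CKO change was 0.25 (adjusted p = 0.0351), and without WT 48 h replicate 3 the WT change was 0.26 (adjusted p = 0.0419). With no count filter both changes were called (adjusted p = 0.0168 in CKO and 0.00224 in WT), whereas without WT replicate 1 at both times the WT change was 0.02 (adjusted p = 0.847). The difference between genotypes was -0.20 ± 0.107 at 48 h (adjusted p = 0.377) and -0.18 ± 0.108 at 0 h (adjusted p = 0.390), and without WT replicate 1 at both times it was -0.06 at 48 h (adjusted p = 0.799).

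The ER chaperones Hsp90b1, which encodes GRP94, and Hspa5, which encodes BiP, the chaperone that holds the sensors inactive, had the highest mean levels per kilobase of exon of the 10 genes at 48 h (ENSMUSG00000020048 on chromosome 10 and ENSMUSG00000026864 on chromosome 2). Hsp90b1 ranged from 944.8 to 1031 CPM in CKO and from 882.5 to 1064 CPM in WT at 48 h, and from 442.2 to 445.4 CPM in CKO and from 386.3 to 449 CPM in WT at 0 h. It rose by 1.16 ± 0.0716 in CKO (2.24-fold, adjusted p = 1.15e-11) and by 1.21 ± 0.0717 in WT (2.32-fold, adjusted p = 5.77e-12). The times did not overlap in either genotype. Its difference between genotypes at 0 h was 0.11 (adjusted p = 0.415), and was called without WT replicate 1 at both times (0.19, adjusted p = 0.0268). Hspa5 ranged from 946.5 to 983.3 CPM in CKO and from 988.6 to 1081 CPM in WT at 48 h, and from 815.6 to 877.1 CPM in CKO and from 760.5 to 833.5 CPM in WT at 0 h. It rose by 0.20 ± 0.0570 in CKO (1.15-fold, adjusted p = 0.00439) and by 0.38 ± 0.0571 in WT (1.30-fold, adjusted p = 5.55e-06). The rise in CKO was not called when only genes with a mean of at least 5 CPM were kept (0.04, adjusted p = 0.488), a filter that moved the median change of all shared genes by -0.15. Between genotypes Hspa5 differed by -0.08 ± 0.0569 at 48 h (adjusted p = 0.531) and by 0.10 ± 0.0570 at 0 h (adjusted p = 0.319). Without WT replicate 1 at both times these were -0.05 (adjusted p = 0.725) and 0.16 (adjusted p = 0.0510). The genes with the ERSE matches shown above are these 2.

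**Figure D2:**
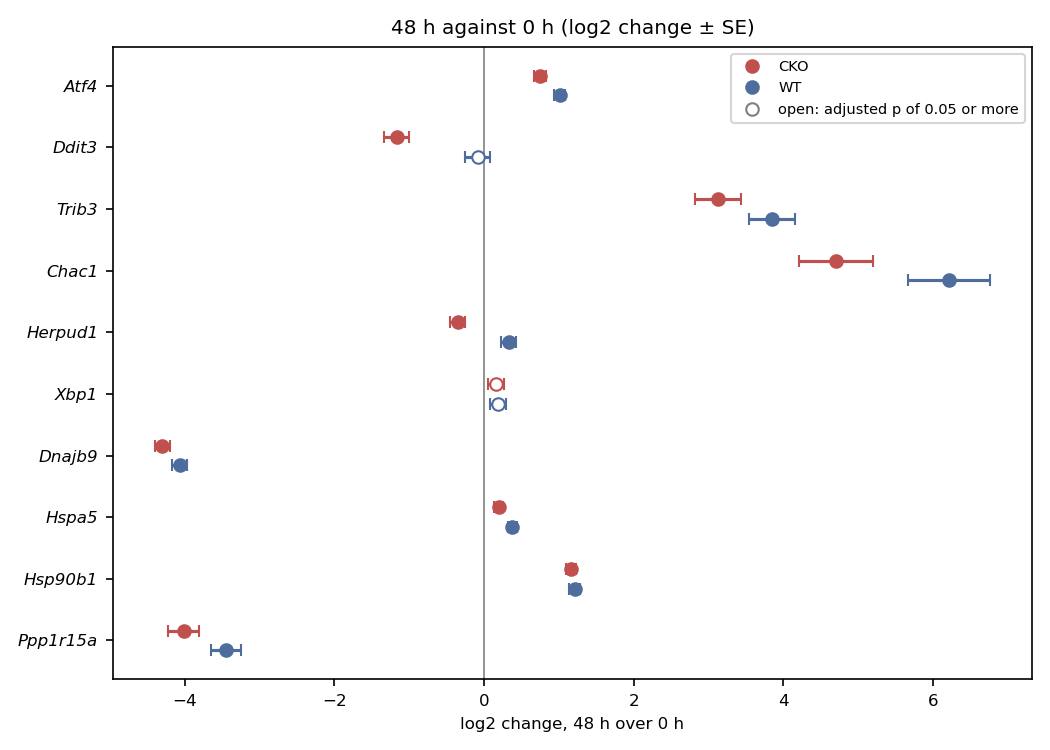
Log2 change of the 10 genes at 48 h over 0 h (horizontal axis) ± SE in CKO (upper point of each pair) and WT (lower point), from 3 libraries per group; filled points have an adjusted p under 0.05. Dnajb9 and Ppp1r15a lie near -4, Trib3 and Chac1 above 3, and Herpud1 lies at -0.35 in CKO and 0.33 in WT; the Chac1 values depend on the prior count of the fit because its 0 h counts are near 0, and it passed the filter only through its 48 h libraries.

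Ddit3 (ENSMUSG00000025408, chromosome 10) encodes CHOP, a transcription factor that promotes cell death under prolonged ER stress, and had the largest called difference between genotypes among the 10 genes. It was at 15.2, 12.7 and 14.0 CPM in CKO and 23.9, 14.8 and 17.9 CPM in WT at 48 h, and at 36.1, 25.1 and 33.0 CPM in CKO and 22.6, 17.5 and 20.0 CPM in WT at 0 h. At 0 h each CKO library was above each WT library, and at 48 h CKO replicate 1 and WT replicate 2 overlapped. Ddit3 fell by 1.17 ± 0.168 in CKO cells after stimulation (2.25-fold lower, adjusted p = 1.02e-05), with no overlap. In WT the change was -0.08 ± 0.167 (adjusted p = 0.659), the times overlapped, and the sign turned without WT 0 h replicate 1 (0.01) or WT 48 h replicate 2 (0.06). At 48 h the genotypes differed by -0.43 ± 0.170 (adjusted p = 0.193, not called), by -0.24 without WT replicate 1 at both times (adjusted p = 0.473) and by -0.45 with no count filter, where it was called (adjusted p = 0.00572). The difference between the responses was -1.09 ± 0.237 (adjusted p = 0.0327).

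At 0 h Ddit3 was 1.57-fold higher in CKO (log2 difference 0.65 ± 0.165, adjusted p = 0.0240), the 1 called gene of the 10, where 7.48% of all genes were called, 4.10% higher and 3.38% lower. The libraries of the genotypes did not overlap for 3 of the 10, Ddit3, Ppp1r15a and Xbp1, beside 24.6% of all genes. Ddit3 was not called at 0 h without WT 0 h replicate 2 (adjusted p = 0.0996) or 3 (0.0785), or without CKO 0 h replicate 1 (0.103) or 3 (0.0973), though its log2 difference stayed between 0.54 and 0.79 with any 1 library left out. Without WT replicate 1 at both times it was 0.76 (adjusted p = 0.00203). Within each genotype at 0 h, the library order of Ddit3 was that of the immediate early genes: in CKO 36.1, 25.1 and 33.0 CPM of Ddit3 stood beside sums of 8243, 5761 and 7681 CPM, and in WT 22.6, 17.5 and 20.0 CPM beside 7002, 5473 and 5767 CPM. This order, replicate 1 above 3 above 2, also held in both genotypes at 0 h for Atf4 and for the myeloid marker sums. It held at 48 h too for Ddit3, Atf4 and the immediate early sums. The order is thus not particular to Ddit3 and the immediate early genes, though Xbp1 and Herpud1 did not follow it at 0 h. Across genotypes at 0 h, CKO replicate 2, with an immediate early sum of 5761 CPM, had 25.1 CPM of Ddit3. That was above WT replicate 1, with a sum of 7002 CPM and 22.6 CPM. The immediate early sums at 0 h averaged 7229 ± 1301 CPM in CKO and 6081 ± 811 CPM in WT. Of the 14 immediate early genes, Btg2 was the 1 called between genotypes at 0 h, lower in CKO (-0.33, adjusted p = 0.00062). Its sign was opposite to the median difference of the 14, which was 0.30 beside -0.01 over all genes. Fosb (1.43), Nr4a1 (0.93), Fos (0.81), Zfp36 (0.63), Egr1 (0.48) and Ier3 (0.48) were estimated higher in CKO and were not called. The same held for Hspa1b (0.37), Dusp1 (0.23), Hspa1a (0.22), Jun (0.03), Klf6 (0.03) and Ier2 (0.02). Junb was estimated lower (-0.04) and was not called. The part of the immediate early genes in the Ddit3 difference was not tested.

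Herpud1 (ENSMUSG00000031770, chromosome 8), which encodes an ER membrane protein that helps to pass misfolded proteins to degradation and has letters of both an ATF4 core and an ERSE-II in its promoter window, was the other gene with a called difference in response. It was at 58.3, 59.9 and 61.7 CPM in CKO and 89.2, 70.2 and 73.4 CPM in WT at 48 h, and at 80.2, 67.9 and 81.6 CPM in CKO and 71.0, 59.0 and 55.2 CPM in WT at 0 h. The CKO libraries were the lower ones at 48 h without overlap, while at 0 h CKO replicate 2 overlapped WT replicate 1. Herpud1 fell by 0.35 ± 0.102 in CKO (1.28-fold lower, adjusted p = 0.00460) and rose by 0.33 ± 0.101 in WT (1.26-fold higher, adjusted p = 0.00686), where the times overlapped. The rise in WT was not called with the filter of 5 CPM (0.18, adjusted p = 0.123). The difference between the responses was -0.68 ± 0.144 (adjusted p = 0.0224).

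At 48 h Herpud1 was lower in CKO (-0.37 ± 0.101, 1.29-fold lower, adjusted p = 0.0448), the 1 called gene of the 10, where 4.54% of all genes were called, 2.35% higher and 2.19% lower. It was not called with library totals alone as the scale (adjusted p = 0.0521) or with the filter of 5 CPM (0.0629). Nor was it called without WT 48 h replicate 1 (0.137) or 3 (0.0721), or without CKO 48 h replicate 1 (0.156), 2 (0.115) or 3 (0.118). The same held without WT 0 h replicate 2 (0.0559) and CKO 0 h replicate 1 (0.0608) or 3 (0.0534). Without WT replicate 1 at both times the difference was -0.27 and was called (adjusted p = 0.0472). Herpud1, Trib3, Atf4 and Hspa5, 4 of the 10, had no overlap between genotypes at 48 h, beside 23.7% of all genes, and in each the CKO libraries were the lower. At 0 h Herpud1 was at a log2 difference of 0.31 ± 0.102 (adjusted p = 0.0769), and without WT replicate 1 at both times it was 0.43 (adjusted p = 0.00103). Leaving out a single library called it at 0 h for WT 0 h replicate 1 (0.42, adjusted p = 0.0160), WT 48 h replicate 1 (0.32, adjusted p = 0.0206) and CKO 0 h replicate 2 (0.39, adjusted p = 0.0329).

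**Figure D3:**
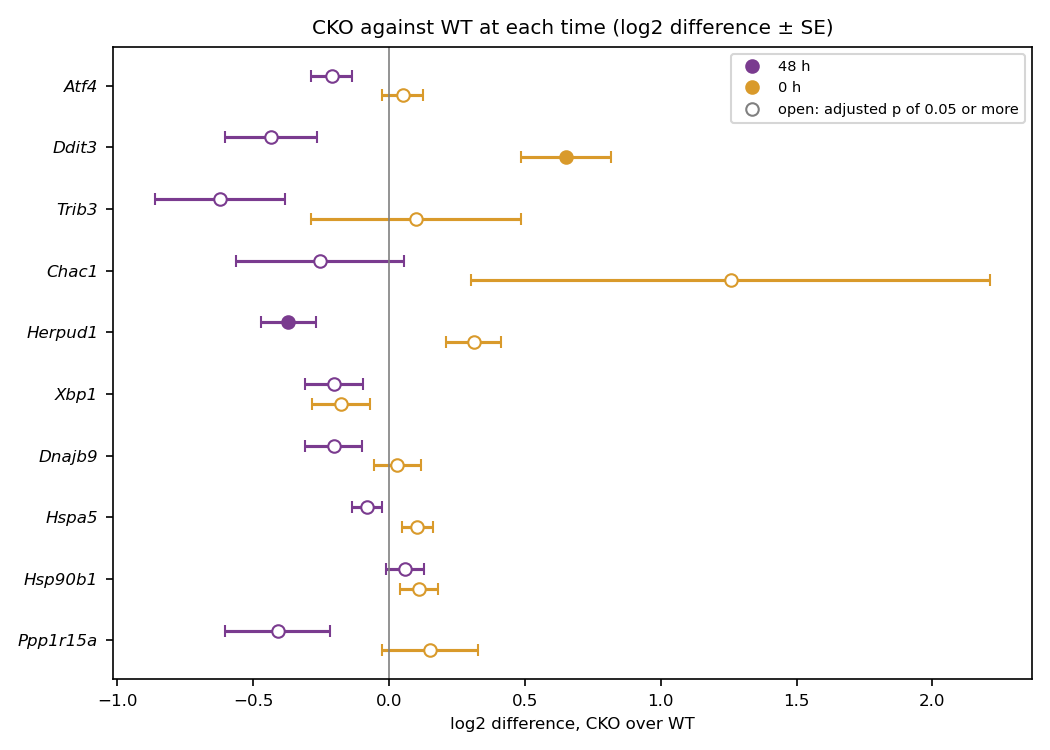
Log2 difference of CKO over WT (horizontal axis) ± SE for the 10 genes at 48 h (upper point of each pair) and 0 h (lower point), from 3 libraries per group; filled points have an adjusted p under 0.05. At 48 h 9 of 10 points lie below 0 and at 0 h 9 of 10 lie above 0, and the filled points are Herpud1 at 48 h and Ddit3 at 0 h.

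Ddit3 and Herpud1 were the 2 of 10 genes whose response differed between genotypes, where 1.38% of all genes were called, 0.609% with a difference above 0 and 0.772% with one below 0. Both differences were called without WT replicate 1 at both times, at -0.99 for Ddit3 (adjusted p = 0.0114) and -0.70 for Herpud1 (adjusted p = 0.00101). With any 1 library left out, the difference ran from -1.24 to -0.90 for Ddit3 and from -0.79 to -0.58 for Herpud1. It was called in 4 of these 12 fits for Ddit3 and in 6 of 12 for Herpud1. For Ddit3 the adjusted p was 0.0859 without WT 0 h replicate 2, 0.0821 without WT 0 h replicate 3 and 0.0658 without WT 48 h replicate 3. It was 0.0755 and 0.0887 without CKO 0 h replicates 1 and 3, and 0.0538, 0.0796 and 0.0925 without CKO 48 h replicates 1, 2 and 3. For Herpud1 it was 0.0681 and 0.0567 without WT 0 h replicates 2 and 3, 0.0693 and 0.0706 without CKO 0 h replicates 1 and 3, and 0.0595 and 0.0508 without CKO 48 h replicates 1 and 3.

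The other 8 genes had no called difference in response. All 10 estimates were below 0 (50.9% of all genes were), with a median of -0.41 beside -0.01 over all genes. Of CKO against WT, 9 of 10 estimates were below 0 at 48 h (51.5% of all genes) and 9 of 10 above 0 at 0 h (48.8% of all genes). Their medians were -0.23 at 48 h and 0.11 at 0 h, beside -0.01 over all genes at each time. Without WT 48 h replicate 1, the library that was highest for all 10 genes, 8 of 10 response differences were below 0 and the 48 h median was -0.12. These estimates share libraries and, within groups, the genes moved together. Over the 12 libraries, deviations from the group mean correlated with a median Pearson r of 0.55 over the 45 pairs of genes, 25 of them above 0.5 and 0 below -0.5. The highest were Atf4 with Hsp90b1 (0.93), Hspa5 with Hsp90b1 (0.88) and Atf4 with Ddit3 (0.85), and the lowest was Chac1 with Dnajb9 (0.06). They describe genes read from the same 12 libraries at the same depth, so the 10 signs are not independent of each other. The same correlations were not computed over all genes tested, so these values do not set the 10 genes apart from other genes.

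Levels can be compared between genes only per length, here CPM per kilobase of exon from GENCODE M21. In CKO at 48 h the order of levels was Hsp90b1 (246.3), Hspa5 (229), Atf4 (177.6), Xbp1 (42.8), Herpud1 (25.7), Ppp1r15a (13.2), Ddit3 (8.16), Trib3 (6.89), Dnajb9 (6.20) and Chac1 (2.37), where Ddit3 overlapped Trib3 and Trib3 overlapped Dnajb9. In WT at 48 h Hspa5 (242.3), Hsp90b1 (236.7) and Atf4 (205.6) led and overlapped each with the next, and Chac1 (2.83) was again the last. At 0 h the order differed: Ppp1r15a was first in CKO (213.7) and in WT (192.6), Hspa5 was the second (200.1 in CKO and 186.2 in WT) and Dnajb9 the third (122.3 in CKO and 119.7 in WT). In WT at 0 h Ppp1r15a overlapped Hspa5. Ddit3 was at 18.3 in CKO and 11.7 in WT at 0 h on this scale, above Trib3 (0.783 and 0.731) and Chac1 (0.0870 and 0.0345).

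Over the 12 libraries, the closest profiles to Atf4 by Pearson r of log2 CPM were those of Psph (0.994) and Sap30 (0.992). Ddit3 was closest to Gla (0.958) and Slc3a2 (0.957), Herpud1 to Rheb (0.912) and Cdk5rap3 (0.897), and Xbp1 to Fam49b (0.917) and Dhrs7 (0.902). Trib3 was closest to Mrpl36 and Mrps16, Chac1 to Commd1 and Pbdc1, Hspa5 to Gm16418 and Dstn, and Hsp90b1 to Lamp2 and Bak1. These values hold the step between times as well as the differences between genotypes.

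The rest of the pathway was read from 6 lists of 108 genes, of which 105 were tested. Over all genes tested, 38.5% rose and 39.2% fell in CKO and 38.7% rose and 39.1% fell in WT, against which the counts are to be read. Of 27 tested partners and targets of ATF4, 23 rose and 3 fell in CKO, and 23 rose and 2 fell in WT, with median log2 changes of 2.05 in CKO and 2.04 in WT. Some of the 27 were near 0 at 0 h, among them Cth, with 4 summed counts in CKO and 3 in WT. Like Chac1, such genes could pass the filter only through their 48 h libraries and had to be higher there. They add to these counts and medians. Psat1 (3.63 in CKO and 3.82 in WT) and Phgdh (2.05 and 2.38), enzymes of serine synthesis, and Mthfd2 (3.26 and 3.33), a mitochondrial folate enzyme, rose in both, as did Sesn2 (2.59 in CKO), a brake on mTORC1. Sensor mRNAs moved apart: Eif2ak3, which encodes PERK, fell by 0.71 ± 0.0861 in CKO and by 0.85 ± 0.0866 in WT, and Ern1, which encodes IRE1, fell by 0.45 ± 0.149 and 0.56 ± 0.150. Atf6 rose by 1.56 ± 0.112 in CKO and 1.68 ± 0.113 in WT.

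Among 14 genes for the eIF2alpha kinases, eIF2alpha, eIF2B and the phosphatase, 10 rose and 1 fell in CKO and 11 rose and 1 fell in WT, with medians of 0.55 and 0.49. Those with the smallest p were Eif2s1, which encodes eIF2alpha itself (1.92 in each genotype), and Eif2b1 (2.01 in CKO and 2.10 in WT), a subunit of its exchange factor. Of 21 genes of ATF6 processing and ER folding, 16 rose and 3 fell in CKO and 17 rose and 4 fell in WT, with medians of 0.93 and 0.88; Canx (1.75 and 1.71), Ero1l (2.27 and 2.42) and P4hb (1.69 and 1.71) were among those that rose. Of 18 tested genes of the IRE1 and XBP1 arm, 12 rose and 3 fell in CKO and 12 rose and 5 fell in WT, with medians of 0.48 and 0.54, and Rtcb, the ligase that joins the cut Xbp1 mRNA, rose by 1.17 in CKO and 1.12 in WT. Of 18 genes of ER-associated degradation, 8 rose and 6 fell in CKO and 6 rose and 5 fell in WT, with medians of 0.07 and -0.02. There Vcp, the segregase that extracts proteins from the ER, rose by 1.35 in CKO and 1.28 in WT, and Herpud2 fell by 1.76 and 1.59. Over all genes tested the medians were -0.04 in CKO and -0.03 in WT. The counts for ER-associated degradation were near the shares of all genes.

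**Figure D4:**
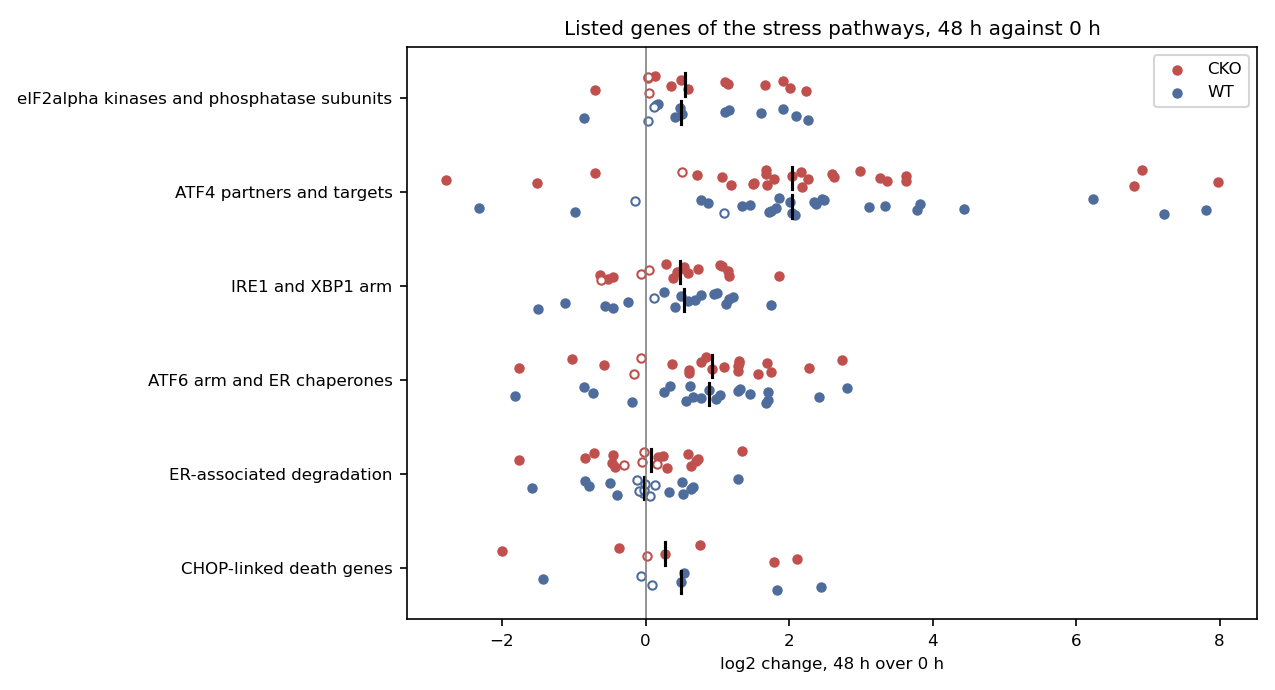
Log2 change at 48 h over 0 h (horizontal axis) of the tested genes of 6 lists in CKO (upper of each pair) and WT (lower); each point is 1 gene, filled where the adjusted p is under 0.05, and the black tick is the list's median. The ATF4 partners and targets have medians of 2.05 in CKO and 2.04 in WT, and the genes of ER-associated degradation have medians of 0.07 and -0.02. The ATF4 list holds genes near 0 at 0 h, such as Cth, that could pass the count filter only through their 48 h libraries.

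Few of these genes differed between genotypes, where 7.48% of all genes were called at 0 h and 4.54% at 48 h. At 0 h Slc3a2, the heavy chain of amino acid transporters, was higher in CKO and Aars, the alanyl-tRNA synthetase, was lower (-0.37 ± 0.0857, adjusted p = 0.0101), as was Sec24d, a coat protein of vesicles leaving the ER (-1.12 ± 0.199, adjusted p = 0.00128). At 48 h Cth, an enzyme of cysteine synthesis, was higher in CKO at 22.3 ± 1.69 CPM, against 14.0 ± 1.47 CPM in WT (0.67 ± 0.187, adjusted p = 0.0467). Lower at 48 h were Edem3, which trims glycans of misfolded proteins (-0.28 ± 0.0780, adjusted p = 0.0480), Bax (-0.28 ± 0.0723, adjusted p = 0.0317) and Bcl2l11. Bax and Bcl2l11, which encodes BIM, promote cell death and stand in a list of 7 tested genes linked to CHOP, of which 4 rose and 2 fell in CKO and 4 rose and 1 fell in WT after stimulation. Among the 14 eIF2alpha genes the smallest adjusted p between genotypes was that of Eif2ak3 at 48 h (0.30 ± 0.0870, adjusted p = 0.0511), and among the 21 folding genes that of Calr, an ER chaperone, at 48 h (0.19 ± 0.0589, adjusted p = 0.0827), neither of them called.

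The response differed for 2 of the 105 listed genes, a share near that of all genes (1.38%) and so no result about the lists. Both were called in each of 19 fits that changed the scaling, the filter or the model or left out libraries. Slc3a2, a target of ATF4, was at 180.9, 167.3 and 168.2 CPM in CKO and 203.3, 167.5 and 185.3 CPM in WT at 48 h, and at 286.8, 266.1 and 286.6 CPM in CKO and 226, 188.5 and 202.8 CPM in WT at 0 h. The CKO libraries were all above the WT libraries at 0 h (0.44 ± 0.0751, adjusted p = 0.000755) and overlapped them at 48 h. It fell by 0.70 ± 0.0754 in CKO (adjusted p = 5.91e-08), the change in WT was -0.15 ± 0.0751 (adjusted p = 0.0741), and the difference was -0.55 ± 0.106 (adjusted p = 0.0102, from 1.83e-06 to 0.0411 over the fits).

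Bcl2l11 was at 63.9, 71.0 and 62.3 CPM in CKO and 98.1, 79.8 and 79.0 CPM in WT at 48 h, and at 254.5, 267.9 and 266.1 CPM in CKO and 217.9, 230.5 and 240.1 CPM in WT at 0 h. The CKO libraries were the lower ones at 48 h and the higher ones at 0 h, without overlap. It fell by 2.0 ± 0.0799 in CKO (adjusted p = 1.30e-14) and by 1.42 ± 0.0782 in WT (adjusted p = 1.83e-12). The difference between the responses was -0.58 ± 0.110 (adjusted p = 0.00909, from 1.32e-06 to 0.0349 over the fits), with -0.38 ± 0.0789 at 48 h (adjusted p = 0.00634) and 0.20 ± 0.0759 at 0 h (adjusted p = 0.136). In Slc3a2, Bcl2l11, Ddit3 and Herpud1, put together because their difference was called, it was below 0. Over all genes tested, 123 were called below 0 and 97 above 0.

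**Figure D5:**
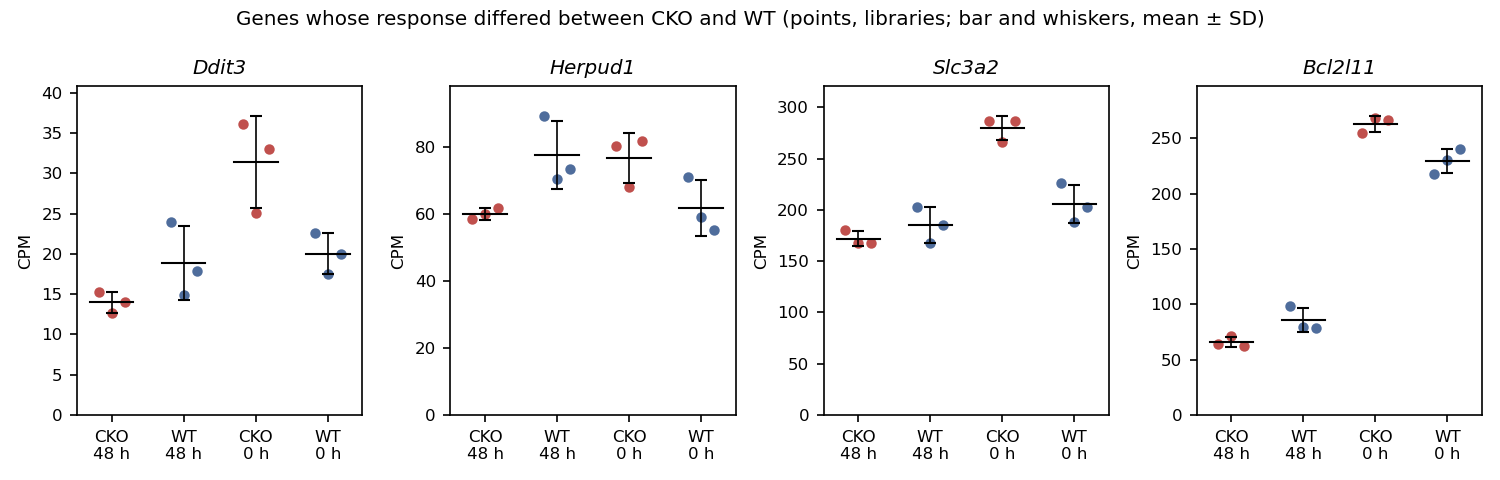
Level in CPM (vertical axis, linear from 0) of Ddit3, Herpud1, Slc3a2 and Bcl2l11 in each library of CKO at 48 h, WT at 48 h, CKO at 0 h and WT at 0 h; bars with whiskers are the mean ± SD (n = 3). The genes are shown because their difference in response was called. In each panel the mean is lower in CKO than in WT at 48 h and higher in CKO than in WT at 0 h.

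Markers of B cells and myeloid cells were lower at 48 h than at 0 h, and at 0 h the B-cell sum was lower in each CKO library than in each WT library. B-cell markers all fell after stimulation in both genotypes (15 of 15), where 39.2% of all genes fell in CKO and 39.1% in WT. At 0 h Ighd, lower in CKO, was the 1 of 15 called between genotypes, where 3.38% of all genes were called lower. The 12 myeloid markers summed to 29.9 to 40.2 CPM in CKO and 27.1 to 36.5 CPM in WT at 48 h, and to 83.3 to 131 CPM in CKO and 82.9 to 122 CPM in WT at 0 h; at 48 h 4 of them were at 0 in CKO and 2 in WT. The 8 plasma cell markers summed to 868 to 974 CPM in CKO and 990 to 1045 CPM in WT at 48 h, and to 164 to 369 CPM in CKO and 140 to 326 CPM in WT at 0 h. That list holds Irf4 and Prdm1, which activated T cells also express, and Tnfrsf17 was at 0 in both CKO groups. Irf4 made up most of each mean sum. It was at 909 CPM in CKO and 997 CPM in WT at 48 h, and at 275 CPM and 141 CPM at 0 h. Of the 7 tested, Igha was the 1 called between genotypes at 0 h, lower in CKO (-2.77 ± 0.509, adjusted p = 0.00723). The median difference of the 7 was -0.57. Jchain was at 6.34 ± 0.891 CPM in CKO and 31.7 ± 34.4 CPM in WT at 0 h, not called (adjusted p = 0.111). The 5 markers of CD4 and regulatory T cells summed to 510.8 to 700.4 CPM in CKO and 645.2 to 1009 CPM in WT at 48 h, and to 391.5 to 467.8 CPM in CKO and 363.7 to 424.6 CPM in WT at 0 h. Ctla4 made up most of each mean sum, and of the 5 it was the 1 called higher at 48 h in each genotype. Foxp3 was called lower in both, and Cd40lg in CKO. Cd4 averaged 40.1 CPM in CKO and 54.0 CPM in WT at 48 h, and 49.3 CPM and 55.6 CPM at 0 h. The median log2 change of the 5 was -0.30 in CKO and -0.04 in WT. Plasma cells express ER chaperones and Xbp1 strongly, and the part of other cells in the levels above was not tested.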

How the data were processed

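RNA was sequenced in 12 libraries, 3 per group, made with a stranded kit for mRNA per the labels' protocols. The authors deposited 1 table of raw counts by Ensembl ID, with no scaling. The submitters' processing notes name the build GRCm39, HISAT2 2.2.1, cutadapt and DESeq2. How reads were assigned to genes, and whether by strand, was not given in the sources used here. Therefore reads of overlapping or antisense genes could have gone to either. Symbols were matched for 52073 of 56691 IDs. Exon lengths and positions come from GENCODE M21 on GRCm38, another build than that of the counts, and no coordinates were converted.

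Counts were scaled by TMM, filtered with filterByExpr on the 4 groups and tested in R 4.3.3 with the robust quasi-likelihood fit of edgeR 4.0.16 (limma 3.58.1 underneath), which had 1 mean per group and 8 residual degrees of freedom. The common biological coefficient of variation was 0.0999. Two-sided p-values had Benjamini-Hochberg adjustment over 15935 genes. There were 5 contrasts: stimulation in CKO, stimulation in WT, genotype at each time, and the difference between the responses. Residual correlations used log2(CPM + 0.5). Motifs were searched as letters. Alternatives were other scalings, no filter, a filter at a mean of 5 CPM, a replicate block, DESeq2 1.42.0, fits of only the groups compared, a log2 minimum of 1, leaving out each library, and leaving out WT replicate 1 at both times. The test was tried on simulated counts. Tables used Python 3.11.15 with SciPy 1.17.1, NumPy 2.4.6 and pandas 2.3.3, and figures used matplotlib 3.10.9.

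The 10 genes, the lists and the tests were chosen with earlier results of these data known. All 10 genes and Senp1 are reported. From each list up to 4 called genes with the smallest adjusted p per contrast were eligible, or 1 or 2 with the smallest p where none was called. Eif2ak3, Ern1 and Atf6 were always eligible. The immediate early genes are all named to describe their list. Some of them, Ier3, Fosb, Junb, Nr4a1, Hspa1a and Hspa1b among these, were named after their values were seen.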

Additional observations from a re-analysis of the deposited data

Results flagged for a closer look

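The responses of the genotypes to stimulation differed in 2 of the 10 genes by the test of the difference itself. For Ddit3 the difference between the CKO and WT responses was -1.09 on the log2 scale (edgeR adjusted p = 0.0327): Ddit3 fell by 1.17 in CKO, and the change in WT was -0.08. For Herpud1 it was -0.68 (edgeR adjusted p = 0.0224): Herpud1 fell by 0.35 in CKO and rose by 0.33 in WT. With 1 library left out, the difference was called in 4 of 12 fits for Ddit3 and in 6 of 12 for Herpud1. No rule for single outlying libraries was applied, since each group has 3; WT replicate 1, which stood apart, is described above.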

How the results depend on the processing

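Of the values of the 10 genes under the alternatives, 972 kept direction and call, 38 lost the call, 16 gained it and 9 turned sign. With a log2 change of at least 1, called genes numbered 3560 higher and 3979 lower in CKO and 3583 higher and 3955 lower in WT for stimulation, 160 higher and 78 lower at 48 h, 218 higher and 122 lower at 0 h, and 42 higher and 40 lower for the difference in response. Of the 10 genes it left 3 higher in CKO after stimulation, 0 at 0 h, 0 at 48 h and 1 (Ddit3) for the response. The stricter filter left 3 of the 10 higher in CKO after stimulation and 0 lower at 48 h, and library totals alone also left 0 lower at 48 h. With no count filter 4 were lower at 48 h and 2 higher at 0 h, with 653 genes lower in all at 48 h and 223 higher and 353 lower in the response. DESeq2 called 207 higher and 224 lower in the response. Without WT replicate 1 at both times 3 of the 10 were higher at 0 h, beside 851 genes in all. In that fit 222 genes were lower in the response, and the response difference of Xbp1 turned to 0.13.

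With 1 library left out, the genes called at 48 h ran from 206 to 415 higher and 142 to 366 lower, at 0 h from 408 to 872 higher and 291 to 726 lower, and in the response from 43 to 128 higher and 73 to 207 lower. Of the 10 genes, 0 to 1 were lower at 48 h, 0 to 2 higher at 0 h and 0 to 2 lower in the response. Over these fits signs turned for the WT change of Ddit3 (-0.28 to 0.062), for CKO against WT at 0 h of Atf4 (-0.019 to 0.11), Dnajb9 (-0.0091 to 0.080) and Trib3 (-0.46 to 0.49), and for the response difference of Hsp90b1 (-0.12 to 0.020) and Xbp1 (-0.15 to 0.11). The cause was not tested. Fits of only the groups compared give no response difference.

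The replicate numbers are shared by the groups, but the labels do not say what they mark. Of 18 pairs of same-numbered libraries 3 had a correlation of deviations over 0.1 (range -0.02 to 0.20, median 0.05). The main fits did not treat them as pairs, yet 12 of 12 libraries correlated best with their own number. Ddit3 and Atf4 also had the same library order, replicate 1 above 3 above 2, in all 4 groups. A shared batch or pairing behind the numbers was not tested, and the main p-values do not allow for one. With the replicate block 2 of the 10 were lower at 48 h, Herpud1 and Ddit3 (adjusted p = 0.0264), and 2 higher at 0 h, Ddit3 and Herpud1 (adjusted p = 0.0274). The counts of all genes in that fit are not given here, so these counts are no result about the 10. Over all settings, 78 to 653 genes were lower at 48 h and 218 to 872 higher at 0 h. With 3 libraries per group, low counts such as those of Chac1 at 0 h limit the precision.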
